A study of Homo sapiens with 6 samples.

Results

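The 10 genes described here belong to the NF-κB pathway. They were NFKBIA, NFKB1, NFKB2, RELA, RELB and TNFAIP3, which encode parts of the pathway, and CXCL1, CXCL2, CXCL8 and ICAM1, which are classical targets of it. Each was followed by taking every region that the authors had assigned to its symbol in 4 lists of regions bound by RNA polymerase II. Of the 271336 regions in the 4 lists, 123 were assigned to these genes, and 8 of the 16428 genes named in the lists were members. CXCL1 and CXCL8 had no region in any list.

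NF-κB is a family of dimeric transcription factors that lie inactive in the cytoplasm of a resting cell, held there by inhibitors of the IκB family. Inflammatory signals switch on the IκB kinase, the inhibitor is degraded, and the freed dimers enter the nucleus and bind short, nearly palindromic DNA sites in promoters and enhancers. Many targets are themselves brakes on the pathway, such as the inhibitor IκBα (NFKBIA) and the ubiquitin-editing enzyme A20 (TNFAIP3), while others are chemokines and adhesion molecules that draw leukocytes into tissue. In the liver the pathway controls acute-phase and survival genes of hepatocytes.

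HepG2 cells, a line derived from a human liver tumor, were used untreated, so no inflammatory stimulus was given. The control cells carried the label SHP-1-WT (CRISPR control) and the edited cells SHP-1-KO (CRISPR knockout). SHP-1 is a tyrosine phosphatase encoded by PTPN6, and the study's methods describe KO cells as single-cell clones made with guides to exons of the phosphatase domain and controls made with a nontargeting guide. The labels do not say which clone was used, so a difference between genotypes cannot be told apart from a difference between clones. Chromatin was precipitated either with an antibody to RPB1, the largest subunit of RNA polymerase II, or with an antibody to RPB1 phosphorylated at serine 2 of its C-terminal repeats (pSer2), the form found on elongating polymerase. There was 1 library for each antibody and genotype, plus 2 input libraries that were not analysed here. No difference below has a replicate check, no test was made, and the depth of the libraries is unknown because the lists hold no read counts.

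Each region carries a fold enrichment, the ratio of its reads over input at the summit, and a rank in its list, with rank 1 the highest fold enrichment and ties sharing a rank. The RPB1 lists held 46045 regions in WT and 41605 in KO cells, and the pSer2 lists 102674 and 81012, with median fold enrichments of 5.51, 5.62, 3.69 and 3.80 in that order. At PTPN6 itself the strongest region had an RPB1 fold enrichment of 24.0 in WT and 17.2 in KO cells, and a pSer2 fold enrichment of 4.03 and 5.24. Occupancy of polymerase does not check a small edit in an exon. Of 7 liver markers, 6 had an RPB1 promoter region in both genotypes, while APOA1 had none at its promoter. In WT and KO cells the fold enrichments were 82.1 and 63.8 for APOB, 36.5 and 20.3 for TTR, 34.2 and 40.2 for AFP. ALB had 24.4 and 24.1, HNF4A 25.6 and 19.8, and FGB 7.25 and 4.66, so AFP alone was higher in KO cells. Among markers of blood and immune cells, PTPRC, CD3E and HBB had no region in any list, CD14 had a weak region in the WT RPB1 list only, and LYZ had RPB1 promoter fold enrichments of 39.2 and 36.0. What the LYZ regions come from was not tested.

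The DNA just before the start of the chemokine genes, NFKBIA, ICAM1 and NFKB1 is shown because it holds the kind of site that NF-κB binds. These same genes also differed in whether an RPB1 promoter region was listed in both genotypes, in WT cells only (CXCL2) or in neither. The sequences are the 250 bases before a RefSeq start on GRCh38.p14, 5′ to 3′ on the strand of the gene. They were found for 9 of the 10 members, in 13 windows, and RELB was not among them. Capitals mark the letters GGAANTTCC, a motif that reads the same on both strands and was chosen after the sequences had been read.
CXCL8 (chr4:73740319-73740568, forward strand): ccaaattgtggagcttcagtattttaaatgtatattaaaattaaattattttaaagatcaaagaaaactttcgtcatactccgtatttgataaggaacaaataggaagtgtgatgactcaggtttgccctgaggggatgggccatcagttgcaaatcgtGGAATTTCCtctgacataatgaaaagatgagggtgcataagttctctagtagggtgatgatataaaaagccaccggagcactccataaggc
CXCL1 (chr4:73869143-73869392, forward strand): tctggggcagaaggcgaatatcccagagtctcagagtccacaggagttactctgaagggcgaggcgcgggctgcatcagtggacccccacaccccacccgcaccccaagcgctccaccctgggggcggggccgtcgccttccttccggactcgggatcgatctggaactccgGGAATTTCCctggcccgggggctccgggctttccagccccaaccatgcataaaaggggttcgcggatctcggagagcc
CXCL2 (chr4:74099196-74099445, reverse strand): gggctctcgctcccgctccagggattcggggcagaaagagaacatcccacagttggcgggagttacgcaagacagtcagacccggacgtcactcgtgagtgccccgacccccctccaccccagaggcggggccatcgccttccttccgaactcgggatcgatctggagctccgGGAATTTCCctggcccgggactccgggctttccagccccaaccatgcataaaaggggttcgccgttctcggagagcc
NFKBIA (chr14:35404750-35404999, reverse strand): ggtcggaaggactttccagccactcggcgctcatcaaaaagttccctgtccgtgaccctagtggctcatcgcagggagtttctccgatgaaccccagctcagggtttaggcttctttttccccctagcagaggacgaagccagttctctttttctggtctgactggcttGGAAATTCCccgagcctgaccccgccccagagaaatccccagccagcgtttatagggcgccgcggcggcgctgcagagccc
ICAM1 (chr19:10270870-10271119, forward strand): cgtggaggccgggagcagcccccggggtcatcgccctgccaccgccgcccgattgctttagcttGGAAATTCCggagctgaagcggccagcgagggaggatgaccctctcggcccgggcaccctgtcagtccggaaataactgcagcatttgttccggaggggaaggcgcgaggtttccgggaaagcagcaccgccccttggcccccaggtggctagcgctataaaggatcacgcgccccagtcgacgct
NFKB1 (chr4:102501109-102501358, forward strand): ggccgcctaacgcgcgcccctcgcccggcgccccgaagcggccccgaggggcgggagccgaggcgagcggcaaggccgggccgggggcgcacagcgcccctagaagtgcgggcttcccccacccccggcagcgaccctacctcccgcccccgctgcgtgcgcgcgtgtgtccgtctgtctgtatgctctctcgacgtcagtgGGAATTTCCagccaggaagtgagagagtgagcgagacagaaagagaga

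The match lay at −91 to −83 from the start in CXCL8, at −78 to −70 in CXCL1, at −77 to −69 in CXCL2, at −81 to −73 in NFKBIA, at −186 to −178 in ICAM1 and at −48 to −40 in NFKB1. Its letters were GGAATTTCC in the 3 chemokine genes and NFKB1, and GGAAATTCC in NFKBIA and ICAM1. It was found in 6 members, and in 290 of 35116 windows of the same length over all genes (0.826%). The longer NF-κB consensus, searched on both strands and overlapping GGAANTTCC where both occur, was also found in 6 members (CXCL1, CXCL2, NFKB1, NFKB2, NFKBIA and TNFAIP3), and in 9.96% of all windows. The TATA box letters TATAAA, on either strand, were found in the windows of CXCL8, ICAM1 and NFKBIA and in 10.7% of all windows. A match in letters is a description and not evidence of a bound factor. Of the 6 GGAANTTCC sites, 4 lay inside an RPB1 region in WT cells and 3 in KO cells, and only the site of NFKBIA lay inside a pSer2 region, in both genotypes. The sites of CXCL8 and CXCL1 lay in no region of any list.

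The inhibitor gene NFKBIA lies at chr14:35401079-35404749 on the reverse strand. Its promoter was among the most strongly occupied of the set. In WT cells a single RPB1 region of 6698 bp ran over the whole gene and beyond its end, with its summit 56 bp into the first exon, a fold enrichment of 50.3 and rank 1716. In KO cells the same stretch was listed as separate regions over the start and over the end, the first of 3137 bp with a fold enrichment of 40.4 and rank 1283, and the second of 2972 bp at 13.2. The pSer2 signal of NFKBIA was highest past the end of the gene, where polymerase prepares to terminate. There the fold enrichment was 11.0 in WT cells, 451 bp past the end, and 6.04 in KO cells, 163 bp past the end, so that the rank moved from 1536 to 7900. At the start of the gene pSer2 was 4.99 in WT and 4.38 in KO cells.

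TNFAIP3, the gene of A20, lies at chr6:137867214-137883314 on the forward strand. No promoter region was assigned to it for RPB1, but a region did cover its start. The authors' annotation gave that region to LOC100130476, which RefSeq names WAKMAR2, a long noncoding RNA on the opposite strand that overlaps the start of TNFAIP3. Its RPB1 fold enrichment was 24.1 in WT cells at rank 7167 and 14.5 in KO cells at rank 8431. ChIP-seq reads carry no strand, so RPB1 on the 2 genes cannot be told apart. The RPB1 regions that were assigned to TNFAIP3 lay just past its end and were weak, at 2.94 in WT and 5.50 in KO cells. For pSer2, each genotype had 10 regions, all from intron 2 onwards and highest at the end of the gene. The strongest reached 8.78 in WT cells and 10.7 in KO cells, with summits 339 and 289 bp past the end and ranks 2996 and 1396. Of the 6 members with pSer2 regions in both genotypes, TNFAIP3 was the only one with a higher pSer2 maximum in KO than in WT cells.

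**Figure D1:**
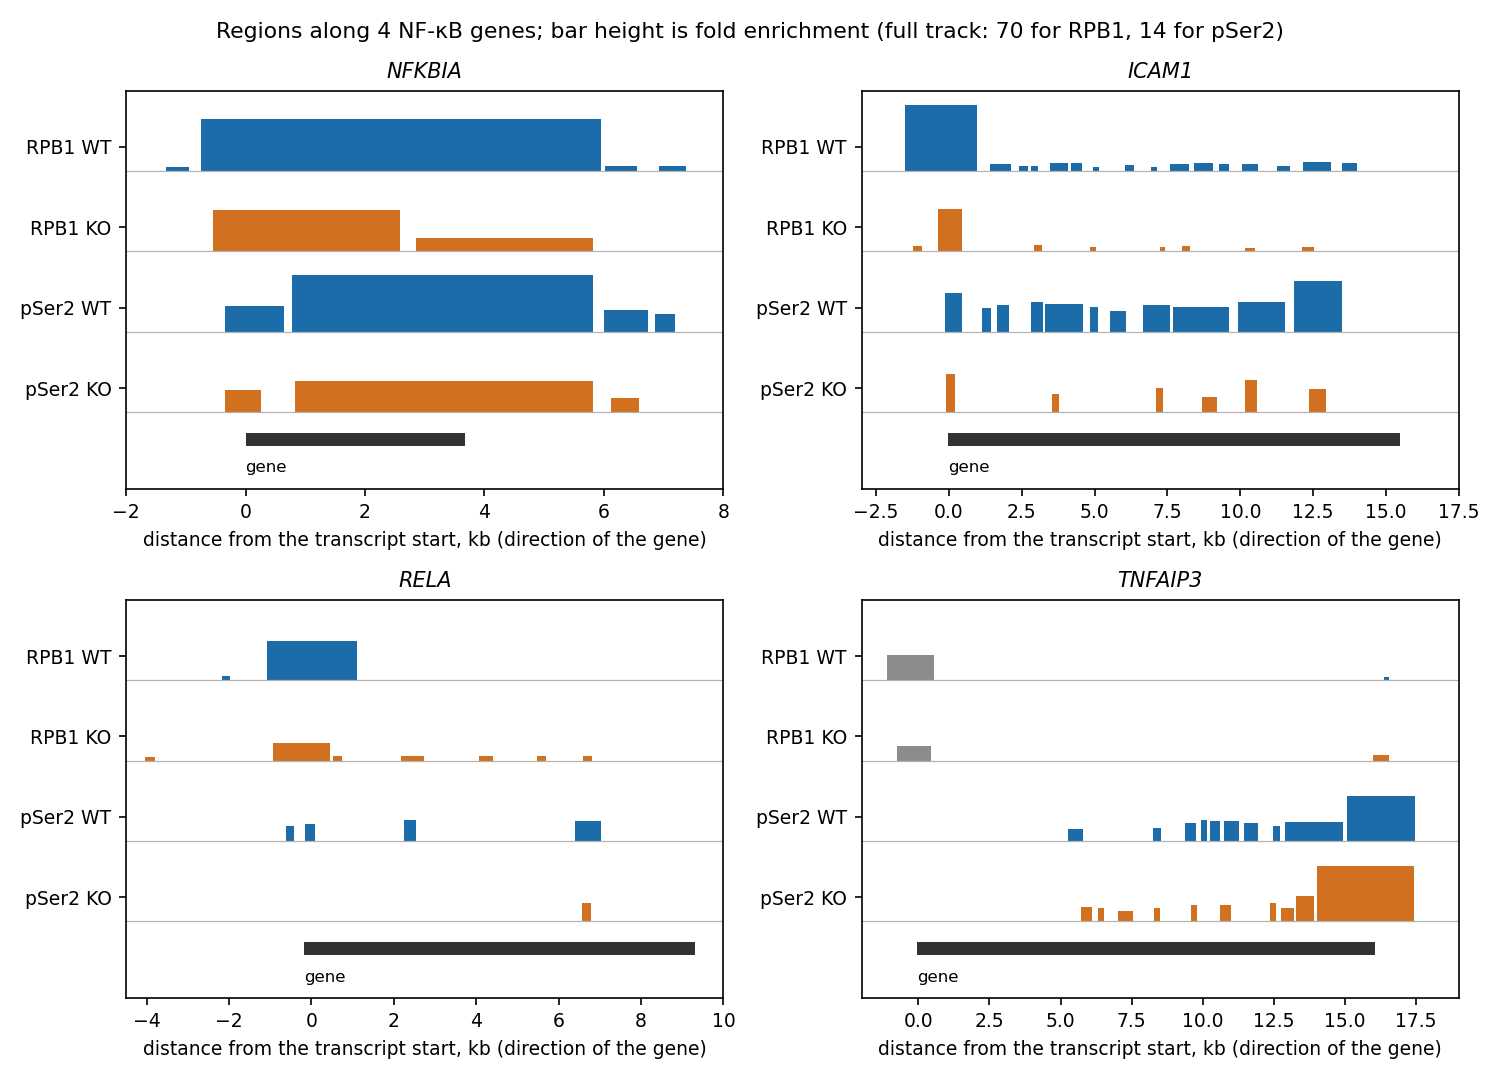
Regions along NFKBIA, ICAM1, RELA and TNFAIP3, drawn as bars from region start to region end against the distance from the transcript start in kb, with bar height the fold enrichment at the summit (full track height 70 for RPB1 and 14 for pSer2). WT regions are blue and KO regions orange, regions assigned to another gene are grey, and the dark bar is the gene, with 3 weak RPB1 regions far past the end of NFKBIA outside the plot. In ICAM1 the WT cells had 16 RPB1 and 11 pSer2 regions and the KO cells 8 and 6.

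Among the genes of the NF-κB subunits, RELA encodes p65, the main activating subunit, and RELB a subunit used mostly in the noncanonical branch. These 2 promoters differed between genotypes in opposite directions. The RPB1 region over the start of RELA (chr11:65653599-65663090, reverse strand) had a fold enrichment of 37.5 in WT cells and 16.9 in KO cells, and its rank went from 3725 to 7310. The region over the start of RELB (chr19:45001461-45038192, forward strand) had 16.1 in WT cells and 22.2 in KO cells, with ranks 9855 and 5186. RELA was thus ahead of RELB in WT cells and behind it in KO cells. A divergent noncoding RNA, RELA-DT, begins inside the same region as RELA, and the polymerase of the 2 genes cannot be separated. In KO cells 6 further weak regions, of 3.70 to 4.75, were listed in and around RELA, against 1 at 4.01 in WT cells. The pSer2 regions of RELA were weak, with the strongest at 4.06 among 4 in WT cells and a single region at 3.65 in KO cells. RELB had no pSer2 region in either genotype.

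NFKB1 and NFKB2 encode the precursors p105 and p100, which are processed to the subunits p50 and p52. The RPB1 region at the start of NFKB1 (chr4:102501330-102617302, forward strand) had a fold enrichment of 39.5 in WT and 26.4 in KO cells, with ranks 3336 and 3850. Its summit stood at −147 in WT cells, within an antisense noncoding RNA that lies before the start, and in KO cells 975 bp into the gene, in intron 1. For pSer2, NFKB1 had 7 regions in WT cells and 1 in KO cells. In both genotypes the strongest lay past the end of this gene of 115973 bp, at 6.46 in WT cells and 4.27 in KO cells. The other 6 in WT cells were intronic and weak, from 2.47 to 3.41.

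NFKB2 (chr10:102394110-102402524, forward strand) had its highest RPB1 region inside the gene, at exon 14 and the neighbouring intron 13, where the authors' annotation places an internal transcript start. It reached 31.3 in WT and 26.4 in KO cells. A WT region of 2161 bp at 22.4 covered the first base of the gene and a second transcript start at 102395705. In KO cells 3 regions were listed in its place, of which the one over the first base reached 9.32 and the one over the second start 15.3. The pSer2 regions assigned to NFKB2 mostly lay elsewhere. Of 5 in WT and 4 in KO cells, 4 and 4 lay over 9 kb before NFKB2, with their summits in GBF1 for 3 and 2 of them and just past its end for the rest. GBF1 is a neighbouring gene that ends 11211 bp before NFKB2. The single pSer2 region inside NFKB2 was in WT cells, at 4.51.

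ICAM1 encodes the adhesion molecule that leukocyte integrins bind. It had the highest RPB1 promoter of the members in both genotypes. Its start region had a fold enrichment of 63.7 in WT cells at rank 656 and 41.3 in KO cells at rank 1190. ICAM1 (chr19:10271093-10286615, forward strand) also differed in the length covered by its regions. In WT cells 15 further RPB1 regions, of 3.57 to 9.01, followed through introns 1 and 2 to exon 6, and in KO cells 7 further regions were listed, of 3.70 to 5.81. The bases covered by RPB1 regions of ICAM1 were 9574 in WT and 2814 in KO cells, and those covered by pSer2 regions were 9945 and 2251. Their mean fold enrichment was 9.77 and 9.23 for RPB1, and 5.74 and 4.86 for pSer2. Over all genes with regions in both lists, the median ratio of covered bases in KO to WT cells was 0.860 for RPB1 and 0.800 for pSer2, and for ICAM1 it was 0.294 and 0.226. The other large difference in RPB1 was at TNFAIP3, from 200 to 580 bp. In pSer2, the covered length of NFKB1 and RELA differed more, with ratios of 0.159 and 0.160. The pSer2 fold enrichment at the start of ICAM1 was 7.57 in WT and 7.42 in KO cells. Around exon 3, where WT cells had their highest pSer2 region at 9.91, the KO cells had 4.50. A noncoding RNA, LIMASI, runs antisense through most of ICAM1, so the signal of the 2 cannot be told apart.

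The chemokine genes stood at the other end. CXCL1, CXCL2 and CXCL8 encode secreted proteins that attract neutrophils, and they lie with CXCL3, CXCL5 and CXCL6 in a block of 359 kb on chromosome 4. In the whole block, 1 region was listed in the WT RPB1 list and none in the other 3 lists. This region was at the start of CXCL2, at chr4:74098965-74099315, with its summit 5 bp past the start, a fold enrichment of 6.25, a −log10 q-value of 7.87 and rank 19593. CXCL8 (chr4:73740519-73743716) and CXCL1 (chr4:73869393-73871308) had no region in any list. Having an RPB1 promoter region in WT but not KO cells was true of 979 of 12229 genes (8.01%), whose median fold enrichment in WT cells was 5.43, against 28.1 for genes with a promoter region in both. No region listed means that none passed the authors' threshold at this unknown depth, and not that polymerase was absent. CXCL1, CXCL2 and CXCL3 are similar in sequence, and how reads matching several places were treated is not given in the sources used here.

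**Figure D2:**
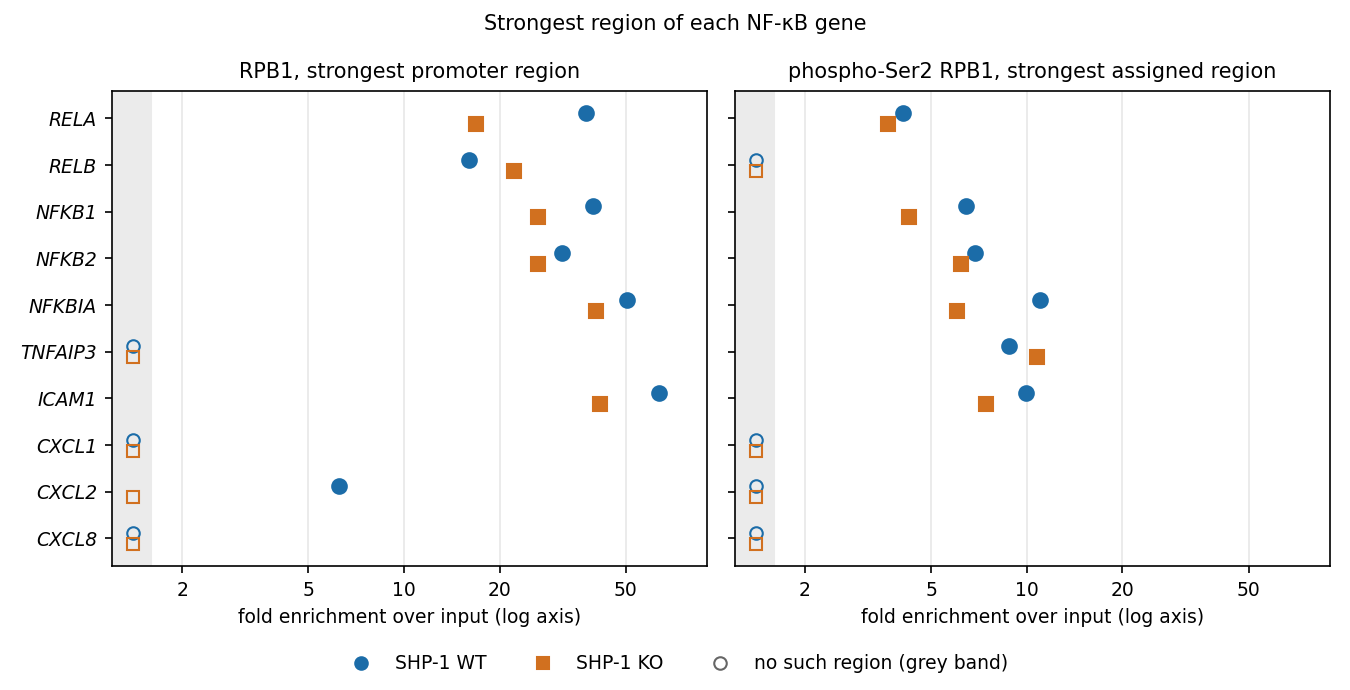
Fold enrichment over input (log axis) of the strongest RPB1 promoter region and of the strongest pSer2 region assigned to each gene, in WT (blue circles) and KO cells (orange squares), 1 library each. Open symbols in the grey band mean that no such region was listed, and RPB1 at the promoter ranged from 6.25 (CXCL2, WT) to 63.7 (ICAM1, WT), while the pSer2 points of NFKB2 are regions at GBF1.

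Ordered by RPB1 at the promoter, the WT cells gave ICAM1, NFKBIA, NFKB1, RELA, NFKB2, RELB and CXCL2, and the KO cells ICAM1, NFKBIA, NFKB2, NFKB1, RELB and RELA. In KO cells NFKB2 and NFKB1 both stood at 26.4. The place of NFKB2 in both orders is that of its internal region. Without replicates there is no spread against which neighbours in this order could be set apart. Of the 8 members with an RPB1 region in WT cells 7 had one at a promoter, beside 86.3% of all genes in that list, and in KO cells 6 of 7 did, beside 87.9%. For pSer2 the counts were 5 of 6 members, beside 71.1%, and 3 of 6, beside 70.1%. In WT cells the strongest of these pSer2 regions had summits from 2352 bp (RELA) to 12285 bp (ICAM1) past the start. The authors' promoter label therefore does not mean the gene's main start here. A pSer2 region covered that start in 3 members in WT and 2 in KO cells.

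Fold enrichment at a promoter was lower in KO than in WT cells for most genes, with a median ratio over 11250 genes of 0.727 for RPB1 (−0.46 on the log2 scale). A library's depth and quality can move this value for all genes at once. A difference shared by all genes between genotypes or clones cannot be told apart from that. Each member's ratio was divided by this value, which takes out any shared shift, and a gene past 1.5-fold after that division was counted. On this scale RELA stood at 0.618 and RELB at 1.90. The other 4 members with an RPB1 promoter region in both genotypes stood between 0.893 (ICAM1) and 1.16 (NFKB2), and the middle of all genes, from the 25th to the 75th percentile, ran from 0.821 to 1.23. The NFKB2 value is that of its internal region, and over its second transcript start the ratio stood at 0.943. That ratio compares unlike places, with summits at −1410 from this start in WT and at −35 in KO cells. The WT region, at 22.4, also covered the first base of NFKB2, where the KO region reached only 9.32. Thus 1 of 6 members was at least 1.5-fold lower, beside 9.29% of all genes, and 1 of 6 was at least 1.5-fold higher, beside 10.3% of all genes. The median of the 6 was 1.01, beside 1 for all genes by construction. The region over the start of TNFAIP3, assigned to LOC100130476, stood at 0.826 on the same scale. A count of 1 among 6 is close to these background shares, and nothing about the members is read from it. Before the division 5 of the 6 ratios were below 1, with RELB the exception at 1.38.

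For pSer2 the median ratio over 10870 genes was 0.936. After division by it NFKBIA stood at 0.585, NFKB1 at 0.706, ICAM1 at 0.799, RELA at 0.959 and TNFAIP3 at 1.31. The sixth ratio, 0.965 for NFKB2, compares the regions just past the end of GBF1 and says nothing of NFKB2 itself. At least 1.5-fold lower was 1 of 6 members, beside 8.35% of all genes, and 0 of 6 were at least 1.5-fold higher, beside 8.44% of all genes. The median of the 6 was 0.879, and 0.799 without NFKB2, which is the value of ICAM1. By the assigned symbol no member had a pSer2 region in WT but not KO cells, beside 14.7% of all genes, but for NFKB2 this holds only through the regions at GBF1, since within 3 kb of NFKB2 its assigned regions were 1 in WT and 0 in KO cells. NFKBIA had an RPB1 promoter ratio of 1.11 and the lowest pSer2 ratio of the members. For RELA the pSer2 ratio compares a region in intron 4 in WT cells with one in intron 8 in KO cells, and its pSer2 regions covered 1385 bp in WT and 222 bp in KO cells. For ICAM1 the ratio also compares unlike places, with summits 12285 bp past the start in WT and 53 bp past it in KO cells. Over the start of ICAM1 the ratio was 1.02 after division by the all-gene median for pSer2 promoter regions. Around exon 3 of ICAM1 the fold enrichment was 9.91 in WT and 4.50 in KO cells.

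**Figure D3:**
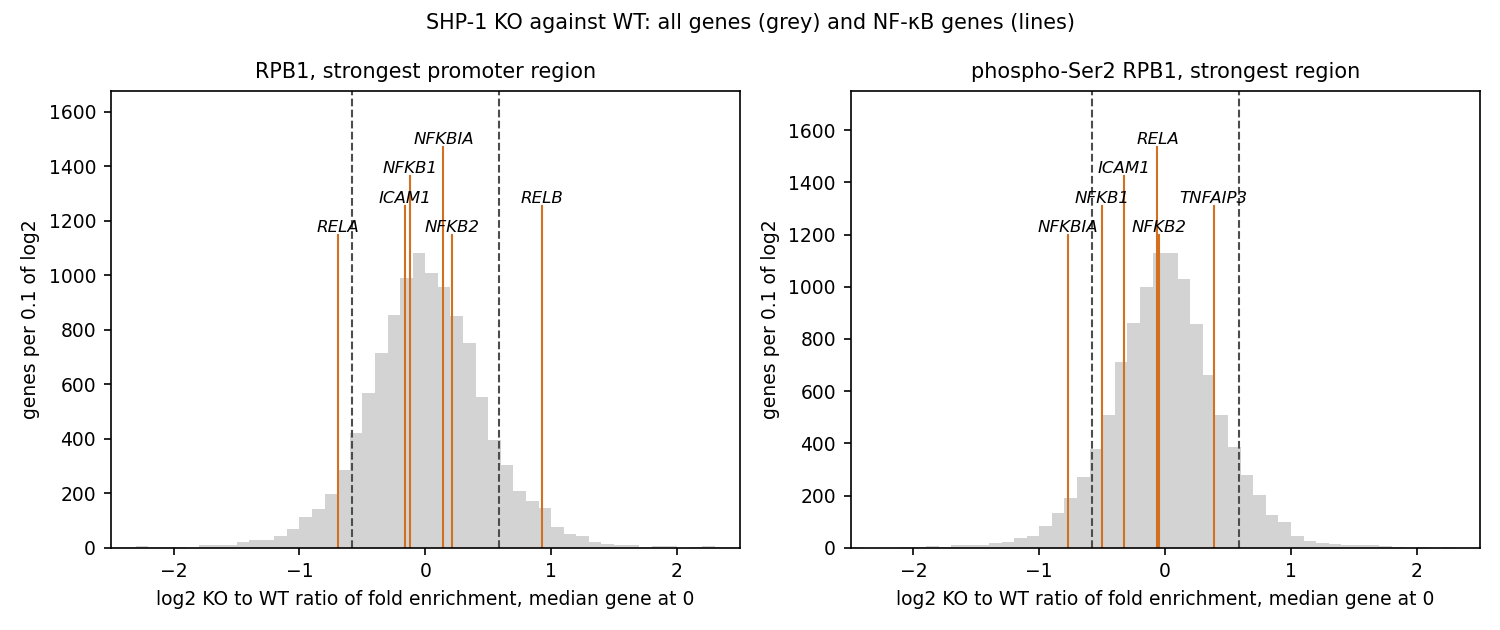
Histogram over all genes of the log2 ratio of fold enrichment in KO to WT cells, shifted so that the median gene is at 0, for the strongest RPB1 promoter region (left, 11250 genes) and the strongest pSer2 region (right, 10870 genes). Lines mark the 6 members present in both lists, their heights only separate the names, and dashed lines mark 1.5-fold. For RPB1 RELA and RELB, and for pSer2 NFKBIA, stand outside the dashed lines, and the pSer2 line of NFKB2 stands for regions at GBF1.

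Regions called in each genotype overlapped in part. Of the members' RPB1 regions, 15 of 31 in WT cells overlapped one in KO cells (48.4%, beside 61.9% of all regions), and 19 of 26 in KO cells overlapped one in WT cells (73.1%, beside 74.9%). For pSer2 the counts were 21 of 41 (51.2%, beside 52.2%) and 23 of 25 (92.0%, beside 69.9%). Of the 16 WT RPB1 regions with no counterpart, 10 were body regions of ICAM1, with fold enrichments up to 8.01. None of the regions without a counterpart was stronger than that.

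The other genes of the pathway were counted in the same way. Among 26 other signalling genes, 21 had an RPB1 promoter region in both genotypes, and they included the kinase subunit CHUK, the adaptors TRAF3 and TRAF6 and the inhibitor NFKBIE. Of the 16428 genes named in the lists, which leave out genes with no region, 11250 had one in both. The median relative ratio of the 21 was 0.869. At least 1.5-fold lower were 2 of 21 (9.52%), a share close to the 9.29% of all genes. These were NFKBID, a nuclear IκB protein, at 27.5 in WT and 7.75 in KO cells, and TRAF2, an adaptor of the TNF receptor, at 22.5 and 7.68. At least 1.5-fold higher was 1 (4.76%, beside 10.3% of all genes), IKBKG, the regulatory subunit of the IκB kinase, at 4.01 and 16.5. The strongest WT region of IKBKG lay away from its promoter, at 8.01. With all assigned regions its relative ratio was 2.77, against 5.67 at the promoter, so its value is uncertain. IKBKG also has a near-identical pseudogene copy, and whether that bears on the value was not tested. TRADD, another adaptor, had a promoter region in WT cells only (5.35), and the inhibitor NFKBIB in KO cells only (9.25). IKBKB, REL and CYLD had none. For pSer2, 18 of the 26 had a region in both genotypes, 1 was at least 1.5-fold lower, beside 8.35% of all genes, and 2 were higher, beside 8.44%. NFKBID and NFKBIZ had been seen in the study's own table of RPB1 changes when the list was written, so NFKBID is no independent example.

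Among 26 other targets, 15 had no RPB1 promoter region by the assigned symbol in either genotype. These included the cytokine genes IL6, IL1B and TNF, the chemokine genes CXCL10 and CCL2 and the adhesion genes VCAM1 and SELE. IER3, also among the 15, had RPB1 regions away from promoters, at up to 9.90 in WT and 13.5 in KO cells. The lists name only genes with a region, so no share over all genes stands beside the 15. An RPB1 promoter region in both genotypes was found for 7, with a median relative ratio of 1.10. At least 1.5-fold lower were 2 of 7 (28.6%, beside 9.29% of all genes), and none was higher, beside 10.3%. With 7 genes, 1 gene more or less moves this share widely. Those lower were CD83, a surface protein of activated immune cells, at 17.7 in WT and 5.32 in KO cells, and IRF1, a transcription factor of the interferon response, at 64.2 and 27.3. Another 4, TNFAIP2, PLAU, LCN2 and LTB, had a promoter region in WT cells only, with fold enrichments of 4.51, 6.01, 4.51 and 8.19. They were 4 of the 11 targets with a WT promoter region, beside 8.01% of all genes. No target had one in KO cells only, beside 4.88% of all genes with a KO promoter region. The target list was written with the study's own table of RPB1 changes already read, so these shares only describe the list. Not every chemokine gene lacked a strong promoter region. CCL20, named after its values were seen, had an RPB1 promoter fold enrichment of 20.3 in WT and 21.4 in KO cells, with pSer2 at 15.0 and 13.5.

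**Figure D4:**
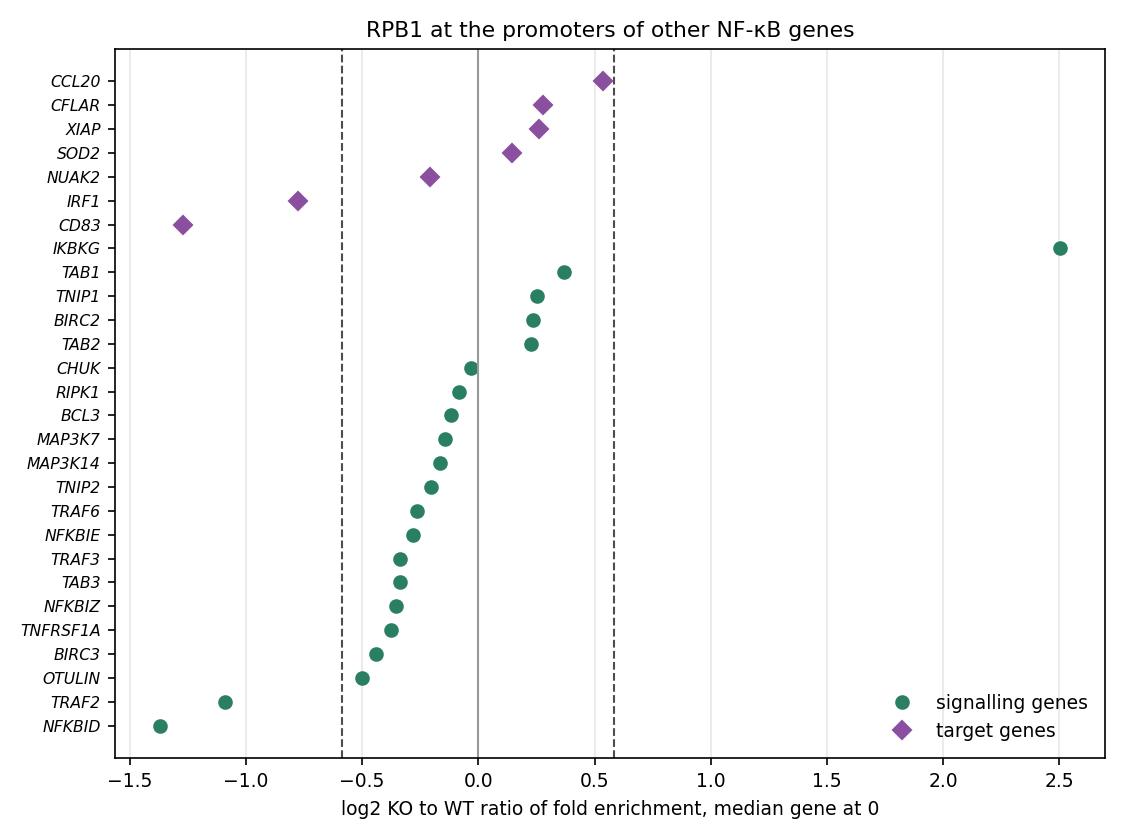
Log2 ratio of RPB1 fold enrichment at the promoter in KO to WT cells, with the median gene of the list at 0, for the 21 signalling genes (green circles) and 7 target genes (purple diamonds) that had a promoter region in both genotypes. Dashed lines mark 1.5-fold, past which lie NFKBID, TRAF2, CD83 and IRF1 on the lower side and IKBKG on the higher side.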

How the data were processed

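The authors trimmed reads with Trimmomatic, aligned them with BWA to hg38 (GRCh38) and ran MACS2 on each library to call narrow peaks, with the matching input as control; versions are not given in the sources used here. The deposited lists give each region's fold enrichment at the summit (a ratio), the −log10 of its p-value and q-value, a score made from the latter by the authors, and the authors' annotation with a gene symbol. The lowest −log10 q-value in them was 1.31. A further deposited table holds the authors' own comparison of RPB1 between genotypes (numbers of windows up and down, p-values, directions). No value was taken from it. The study's own table of RPB1 changes had, however, been read before the lists of other signalling and target genes were written.

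Regions were taken by symbol. A promoter region is one so annotated by the authors. The highest fold enrichment of each gene was compared between genotypes, and ratios were divided by the all-gene median. Gene positions came from GENCODE release 44, in which 22 of the 25 transcripts named for the members were found. With 1 library per group, no p-value was computed. The functions were tested on simulated data. Members and lists were chosen with earlier results of these data known. All members were named, and of the other signalling and target genes those past 1.5-fold for RPB1 or with a promoter region in 1 genotype only; others are named as examples. The result of 1 marker gene is not reported here. Python 3.11.15, pandas 2.3.3, NumPy 2.4.6 and matplotlib 3.10.9 were used. Alternatives were a stricter q-value, other region assignments, other folds and ratios without division.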

Additional observations from a re-analysis of the deposited data

How the results depend on the processing

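Of 45 alternative values, 28 stayed within 1.5 times the reported count or within the limit set for a value, and 17 moved. When regions had to reach a −log10 q-value of 5, the members' regions were 13 (not 26) for RPB1 in KO cells, 24 (not 41) for pSer2 in WT and 14 (not 25) for pSer2 in KO cells. Without division by the all-gene median, the median ratio was 0.735 for RPB1 and 0.823 for pSer2. For RPB1, 2 members were then at least 1.5-fold lower and 0 were higher. The less extreme of the 2 was ICAM1, and 34.9% of all genes had an RPB1 ratio no higher than its own. For pSer2, 2 members were lower. The less extreme was NFKB1, and 11.2% of all genes had a pSer2 ratio no higher than its own. Nothing about the members is read from these counts. At 2-fold, 0 members were past the limit in either direction for RPB1 and 0 were lower for pSer2. With all assigned regions in place of promoters, the RPB1 median was 1.08 and 2 members were higher, the added one being TNFAIP3. The shares of all genes at 2-fold and with all assigned regions are not given here, so those counts have no background. The pSer2 median was 0.995 with gene body and downstream regions alone, 0.793 at the stricter q-value and 0.799 without NFKB2. Counting a pSer2 region over the gene start, whatever its assigned gene, left 3 members in WT cells (not 5). Leaving out NFKB2 and counting regions over the gene start were chosen after the data were seen. Beyond what each alternative's construction shows, the cause was not tested. No paired analysis was possible because each group has 1 library and no result comes from a test, and no replicate could be left out. Unknown depth limits what an unlisted region means, since a gene without one, such as CXCL8, may hold signal below the authors' threshold.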
